A study of Mus musculus with 12 samples.

Results

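The primed epiblast markers described here are 6 genes, Otx2, Zic2, Pou3f1, Foxd3, Utf1 and Fgf5, taken by symbol from the 18412 genes of the deposited exon and intron tables. All 6 were found in every table. PolyA RNA was sequenced from 12 libraries of mouse embryonic stem cells, 3 in each of 4 groups, all grown on gelatin with serum and leukaemia inhibitory factor. The Dicer1-/- line lacks Dicer1, which cleaves microRNA hairpins in the cytoplasm, and was set against the wild-type line TFC. The Dgcr8-/- line lacks Dgcr8, which works with Drosha to release these hairpins in the nucleus, and was set against the wild-type line V6.5. Each genotype is 1 line, so the loss of a factor and other differences between 2 lines cannot be told apart. Whether a group's libraries are separate cultures is not stated in the labels, so p-values reflect the spread between libraries alone, and that spread may be technical.

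Naive embryonic stem cells correspond to the epiblast before implantation, and leave that state through a formative stage to the primed epiblast of the implanted embryo. On the way, naive factors are shut down, and genes such as Otx2 and Fgf5 come up while the core factors Pou5f1 and Sox2 stay on. Otx2 is a homeobox factor that directs Pou5f1 to new enhancers at this transition. Zic2 is a zinc-finger factor, Pou3f1 (also called Oct6) a POU factor and Foxd3 a forkhead factor, all with roles in the epiblast and later in neural or neural crest cells. Utf1 is a chromatin-associated protein of pluripotent cells, and Fgf5 is a secreted fibroblast growth factor that is the classical marker of the epiblast after implantation. The microRNA families miR-290 and miR-302 are abundant in mouse pluripotent cells, and both knockouts block the production of these families.

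The 6 transcripts fall into groups of different base composition, which is shown here because the libraries differ by it. By GENCODE M21 on mm10, Otx2 lies on chromosome 14 from 48657677 to 48673819 (minus strand, 6 exons) and Fgf5 on chromosome 5 from 98254184 to 98277030 (plus strand, 3 exons). Their transcripts hold 46.8% and 47.0% G and C, below the median of 50.6% over 11998 genes. Zic2 lies on chromosome 14 from 122475435 to 122479852 (plus strand, 3 exons), at 59.9%. Utf1 on chromosome 7 from 139943789 to 139945112 (plus strand, 2 exons) is at 63.5%. Pou3f1 on chromosome 4 from 124656807 to 124660655 (plus strand) is at 63.9%, and Foxd3 on chromosome 4 from 99656299 to 99658622 (plus strand) at 65.1%, and each has 1 exon. Utf1, Pou3f1 and Foxd3 were above 99.2%, 99.4% and 99.6% of those genes. The first 60 coding bases from the GENCODE transcripts are printed 5′ to 3′ on the coding strand with G and C in capitals. Otx2 holds 29 such bases in this stretch, Fgf5 34, Utf1 40, Foxd3 42, Zic2 44 and Pou3f1 47.
Otx2: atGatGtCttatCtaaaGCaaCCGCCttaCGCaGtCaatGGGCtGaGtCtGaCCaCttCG
Fgf5: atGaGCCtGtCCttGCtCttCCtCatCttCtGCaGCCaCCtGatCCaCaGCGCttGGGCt
Utf1: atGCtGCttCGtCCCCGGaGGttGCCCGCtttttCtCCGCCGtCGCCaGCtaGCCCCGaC
Foxd3: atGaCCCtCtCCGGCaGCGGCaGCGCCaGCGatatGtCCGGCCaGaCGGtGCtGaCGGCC
Zic2: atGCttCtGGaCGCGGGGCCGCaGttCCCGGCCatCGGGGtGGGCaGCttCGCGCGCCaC
Pou3f1: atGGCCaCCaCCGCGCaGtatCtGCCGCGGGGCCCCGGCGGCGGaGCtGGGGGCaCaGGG

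The microRNAs that both knockouts should remove act mainly through 3′ untranslated regions that match bases 2 to 8 of the microRNA, the seed. Mature sequences of 8 microRNAs of families common in pluripotent cells or widespread are shown, from RefSeq (GRCm38.p6), 5′ to 3′ with the seed in capitals, as the sequences searched for.
mmu-miR-294-3p: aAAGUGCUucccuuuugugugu
mmu-miR-302b-3p: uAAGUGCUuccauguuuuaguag
mmu-miR-293-3p: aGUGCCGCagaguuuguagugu
mmu-miR-20a-5p: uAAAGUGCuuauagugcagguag
mmu-miR-92a-3p: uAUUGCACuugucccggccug
mmu-miR-16-5p: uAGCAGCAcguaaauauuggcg
mmu-miR-130a-3p: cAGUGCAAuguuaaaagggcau
mmu-let-7a-5p: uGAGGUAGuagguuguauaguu
The 3′ untranslated regions of all 6 markers held 0 matches to any of these seeds, searched on the transcript strand. The match searched was AGCACTT for miR-294 and miR-302b, which share a seed, and 6 of its letters are shared with GCACTTT, the match of miR-20a. Of 11984 genes, 17.8% held AGCACTT in their longest annotated 3′ untranslated region and 14.8% held GCACTTT. For miR-293, 1.78% held GCGGCAC, and for miR-92a 7.69% held GTGCAAT. For miR-16, 25.2% held TGCTGCT, for miR-130a 11.9% held TTGCACT, and for let-7a 10.9% held CTACCTC. The regions searched were 1029 bases for Otx2, 609 for Zic2, 1599 for Pou3f1, 588 for Foxd3, 122 for Utf1 and 1478 for Fgf5, and the median over all genes was 1219. The search says only that these letters are not in these windows.

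The deposited columns are group means of reads normalised by a size factor for each library, and the 3 libraries behind each mean were recovered from the printed digits. They carry no replicate number and are called A, B and C within a group. Recovered exonic reads were 5814673 to 30117023 per library and intronic reads 559057 to 5579938. Library A is the one that correlated least with the other 2 of its group, and it deviated alike in both groups of a series: the deviations of A in Dicer1-/- and TFC correlated at r = 0.553 over 13138 genes, and those in Dgcr8-/- and V6.5 at r = 0.609 over 12652 genes. Results are therefore given over all libraries, with a term for the library set (A against B and C), and for B and C alone. The letter A is not a labelled batch but was picked in each group from these same values. P-values with the term and for B and C alone can therefore be too small. Normalised exonic reads of Dicer1 in libraries A, B and C were 1333.5, 1762.9 and 1674.5 in Dicer1-/-, against 2943.8, 3277.8 and 3496.4 in TFC. Those of Dgcr8 were 342.1, 955.5 and 1113.6 in Dgcr8-/-, against 1929.8, 2707.1 and 2947.1 in V6.5. Neither targeted gene passed limma's test over all libraries (adjusted p = 0.0765 and 0.110), while with the library-set term both were lower (adjusted p = 0.00203 and 0.00119). The labels do not name the deleted exons, and reads summed over all exons are no check of a null allele. The marker label was set against the core pluripotency genes Pou5f1, Sox2, Nanog and Sall4. In each series 1 of them was not tested because its libraries could not be resolved in 1 group, Sox2 in TFC and Nanog in Dgcr8-/-. The summed normalised exonic reads were 56511 to 80759.6 in Dicer1-/- with all 4 genes and 35148 to 47971 in TFC without Sox2. They were 30529.5 to 55363 in Dgcr8-/- without Nanog and 17274 to 51243 in V6.5 with all 4. The sums thus cover different genes in the 2 groups of a series and cannot be compared between them.

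In the Dgcr8 series, Otx2 rose in the knockout and was the only 1 of the 6 markers to pass limma's test over all libraries. Fgf5 stood lower and Zic2 higher in all 3 Dgcr8-/- libraries than in any V6.5 library, and these calls passed only with the library-set term or, for Fgf5, also without library A. Pou3f1, Foxd3 and Utf1 overlapped between the groups. Among all 12652 genes tested in these exons, 1.36% were called in either direction and 22.5% had groups that did not overlap, against 1 of 6 markers called and 3 of 6 not overlapping. With the library-set term 3 markers were called, where 17% of genes were, and for B and C alone 2, where 18.2% were. In bulk RNA, fewer cells of a type and less RNA per cell cannot be told apart, for these and all later values.

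Otx2 had 1959.3, 1915.7 and 1867.5 normalised exonic reads in libraries A, B and C of Dgcr8-/-, against 426.6, 170.6 and 154.6 in V6.5. The 3 knockout libraries lay close together and all stood far above the wild-type ones, of which A was the highest. The means were 1914 ± 45.9 in Dgcr8-/- and 250.6 ± 153 in V6.5 (SD, n = 3 each), a ratio of 7.64. On the log2(value + 1) scale the difference was 3.09 (SE 0.43; limma, adjusted p = 0.0261), and with the library-set term the adjusted p was 0.000258. For B and C alone it was 3.53 (adjusted p = 0.000841). Without knockout library B or C, or wild-type library B or C, the change stayed at 2.82 to 3.11 but its adjusted p was 0.189, 0.150, 0.184 and 0.136, and no gene of the table was called.

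Zic2 had 1409.8, 908.2 and 935.4 normalised exonic reads in Dgcr8-/-, against 568.8, 153.3 and 526.0 in V6.5. All 3 knockout libraries stood above all 3 wild-type libraries, with wild-type library B the lowest. The means were 1084 ± 282 in Dgcr8-/- and 416 ± 229 in V6.5 (SD, n = 3 each). The difference was 1.57 on the log2(value + 1) scale (SE 0.53; limma, adjusted p = 0.195). It passed with the library-set term (adjusted p = 0.0217) and not for B and C alone (1.69; adjusted p = 0.0697). Without V6.5 library B it was 0.956 (adjusted p = 0.446).

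Fgf5 had 8.34, 17.1 and 3.20 normalised exonic reads in Dgcr8-/-, which are 20, 22 and 4 recovered reads, against 40.6, 274.0 and 664.7 in V6.5. The groups did not overlap, and the wild-type libraries themselves spread widely, with A the lowest. The ratio of the means, 9.54 in Dgcr8-/- to 326.4 in V6.5, was 0.0292. The difference was -4.46 on the log2(value + 1) scale (SE 1.16; limma, adjusted p = 0.110), and the adjusted p was 0.0112 with the library-set term and 0.00904 for B and C alone, where it was -5.62. Without V6.5 library A it was -5.58 (adjusted p = 0.0375), without B -4.22 (adjusted p = 0.406) and without C -3.58 (adjusted p = 0.357).

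The other 3 markers, all of high G and C content, varied more between libraries of a group than between the groups. Pou3f1 had 899.6, 111.9 and 142.3 normalised exonic reads in Dgcr8-/-, against 964.9, 108.9 and 251.8 in V6.5 (-0.29 on the log2 scale; limma, adjusted p = 0.942). Foxd3 had 1070.2, 61.4 and 113.5 in Dgcr8-/-, against 492.6, 1.81 and 60.6 in V6.5 (2.16, SE 1.86; adjusted p = 0.648), and the 1.81 of library B rests on 2 recovered reads. Without that library the Foxd3 difference was 0.18 (adjusted p = 0.988). Utf1 had 6897.2, 205.1 and 134.3 in Dgcr8-/-, against 7510.8, 147.0 and 82.9 in V6.5 (0.35, SE 1.97; adjusted p = 0.969). In each of these genes library A was the highest of its group and the groups overlapped. The 95% interval of the difference ran from -2.62 to 2.03 for Pou3f1, from -2.15 to 6.47 for Foxd3 and from -4.20 to 4.90 for Utf1 over all libraries. With the library-set term these intervals were -1.12 to 0.53, -0.0044 to 4.33 and -0.34 to 1.03, and none of the 3 passed (adjusted p = 0.628, 0.158 and 0.473).

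**Figure D1:**
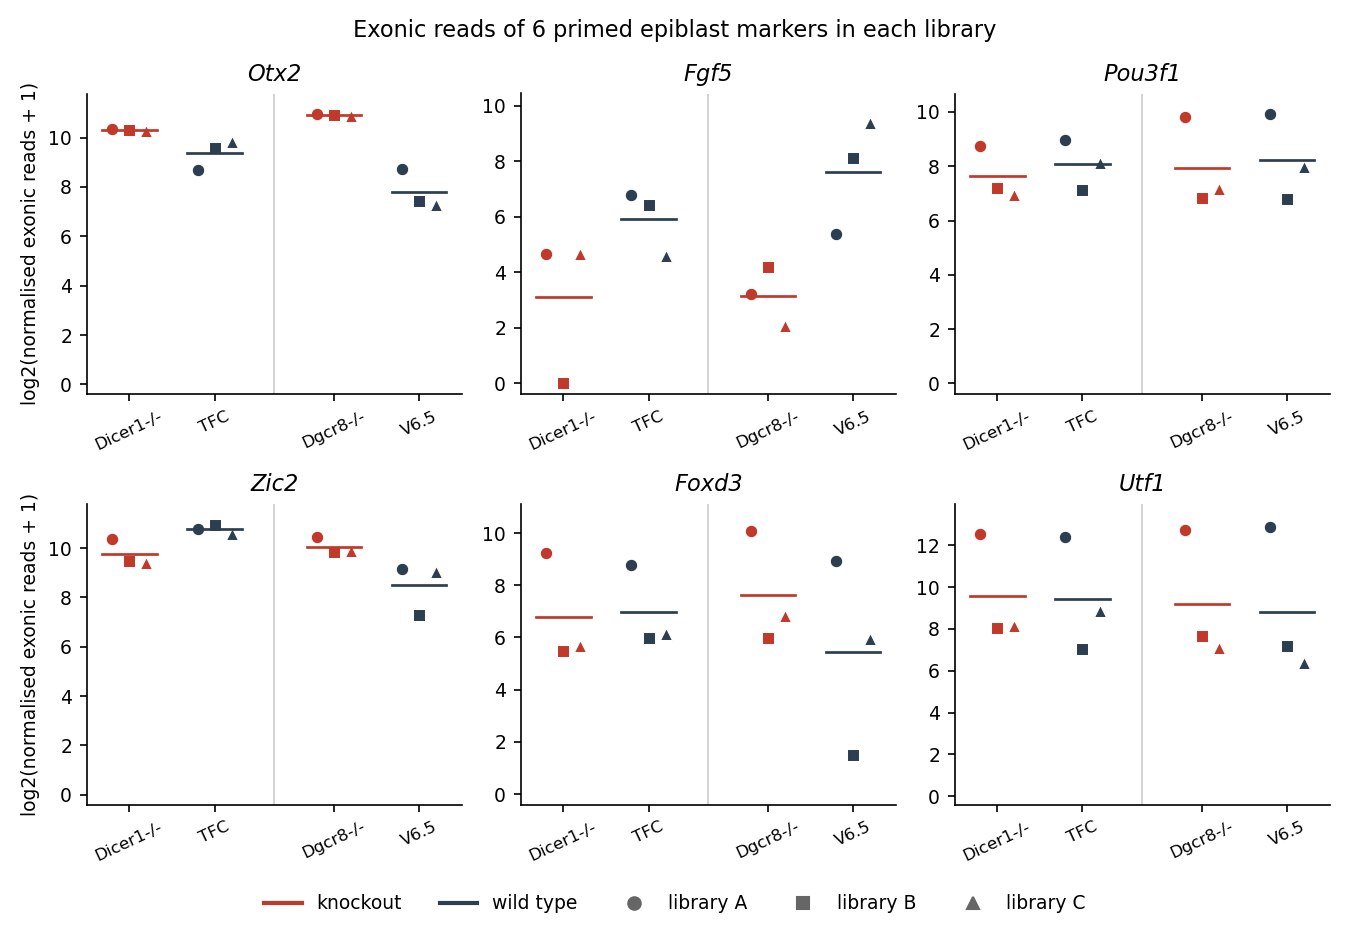
Each panel plots 1 marker, with log2(normalised exonic reads + 1) on the vertical axis, 1 point per library (A circle, B square, C triangle) and a line at the group mean. Otx2 in Dgcr8-/- stands at 1867.5 to 1959.3 reads, above V6.5 at 154.6 to 426.6, while library A lies above B and C for Pou3f1, Foxd3 and Utf1 in all 4 groups.

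In the Dicer series no marker passed over all libraries, against 1.26% of the 13138 genes tested. At an unadjusted p under 0.05, 1901 of these genes passed. Otx2 was higher and Zic2 lower in all 3 Dicer1-/- libraries than in any TFC library. These 2 of 6 markers are to be read against the 21.4% of genes whose groups did not overlap. Both passed once the library set entered the model, where 12.2% of genes did.

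Otx2 had 1302.2, 1271.1 and 1219.0 normalised exonic reads in Dicer1-/-, against 416.7, 765.4 and 910.4 in TFC. The knockout libraries again lay close together and above the wild-type ones, of which A was the lowest here. The means were 1264 ± 42.0 in Dicer1-/- and 697.5 ± 254 in TFC (SD, n = 3 each), a ratio of 1.81. The difference was 0.93 on the log2(value + 1) scale (SE 0.34; limma, adjusted p = 0.251). The library-set term gave an adjusted p of 0.0398, and B and C alone gave 0.58 with an adjusted p of 0.197. Without TFC library A it was 0.60 (adjusted p = 0.218).

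Zic2 had 1339.9, 720.2 and 679.9 normalised exonic reads in Dicer1-/-, against 1740.7, 1978.4 and 1541.8 in TFC. The groups did not overlap, and the A libraries lay closest, at 1339.9 in Dicer1-/- and 1740.7 in TFC. The means were 913 ± 370 in Dicer1-/- and 1754 ± 219 in TFC (SD, n = 3 each), a ratio of 0.521. The difference was -1.005 on the log2(value + 1) scale (SE 0.32; limma, adjusted p = 0.188). It passed with the library-set term (adjusted p = 0.0189) and for B and C alone (-1.32; adjusted p = 0.0298), where 5.43% of genes did.

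Fgf5 was low in the Dicer series, with 24.3, 0 and 23.9 normalised exonic reads in Dicer1-/-, against 108.1, 85.0 and 23.0 in TFC. The lowest TFC library lay within the knockout range, so the groups overlapped. The difference was -2.83 on the log2(value + 1) scale (SE 1.68; limma, adjusted p = 0.499), with an interval from -6.64 to 0.985, and without Dicer1-/- library B, at 0, it was -1.28 (adjusted p = 0.809). Pou3f1 had 430.7, 145.4 and 122.2 in Dicer1-/-, against 505.0, 137.6 and 273.3 in TFC (-0.43; adjusted p = 0.828). Foxd3 had 601.9, 43.2 and 50.5 in Dicer1-/-, against 433.3, 62.5 and 69.0 in TFC (-0.17; adjusted p = 0.972). Utf1 had 5938.6, 261.3 and 284.2 in Dicer1-/-, against 5459.7, 130.1 and 460.2 in TFC (0.14; adjusted p = 0.980). As in the Dgcr8 series, library A held the highest value of each group for these 3 genes, and the groups overlapped.

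The effects of the 2 knockouts were compared directly by the contrast of both over 12 libraries, Dicer series minus Dgcr8 series. No marker passed, against 0.171% of 12268 genes (863 at an unadjusted p under 0.05). For Zic2 the contrast was -2.57 (SE 0.65; limma, adjusted p = 0.205), from a log2 fold change of -1.005 in the Dicer series and 1.57 in the Dgcr8 series. For Otx2, higher in both knockouts, it was -2.16 (SE 0.56; adjusted p = 0.207). With the library-set term both passed, where 2.80% of genes did (adjusted p = 0.0161 for Zic2 and 0.0129 for Otx2), and both did for B and C alone, where 5.08% of genes did (adjusted p = 0.0340 and 0.000989). The contrast for Fgf5 was 1.64 (SE 2.05; adjusted p = 0.999), with an interval from -2.83 to 6.10.

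**Figure D2:**
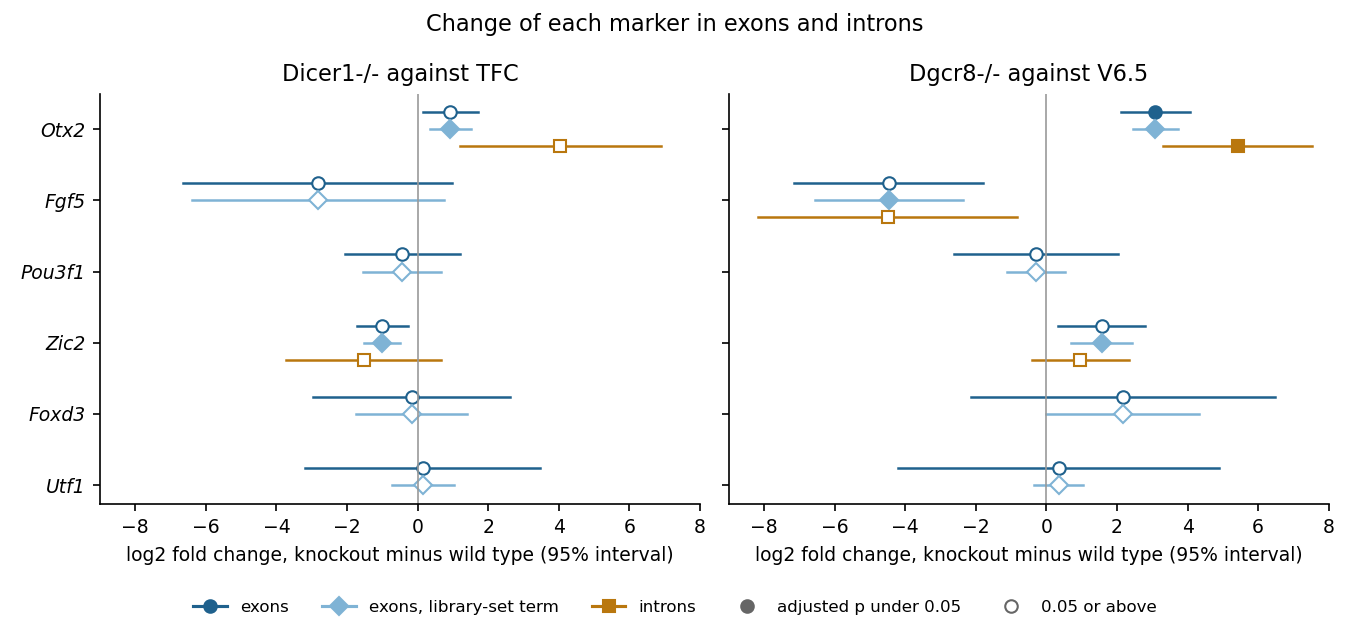
The plot gives each marker's log2 fold change, knockout minus wild type, with its 95% interval, for exons over all libraries, exons with the library-set term and introns. Only Otx2 in Dgcr8-/- is filled for exons (3.09) and introns (5.42) over all libraries, and the exonic intervals of Utf1, Foxd3 and Pou3f1 narrow with the library-set term.

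Intronic reads, which come mostly from unspliced RNA, were measurable for 3 markers. Pou3f1 and Foxd3 have no intron in the deposited tables, and the Utf1 intron of 77 bases gave 0 reads in every library B and C and was below the filter. Otx2 was called in Dgcr8 introns, where 1.52% of 10748 genes were, and it was the only marker called. It had 428.6, 255.7 and 281.4 normalised intronic reads in Dgcr8-/-, against 11.8, 0 and 29.9 in V6.5. The knockout libraries all stood above the wild-type ones, and the ratio of the means, 321.9 in Dgcr8-/- to 13.9 in V6.5, was 23.1. The difference was 5.42 on the log2(value + 1) scale (SE 0.99; limma, adjusted p = 0.0144). It was 5.19, 5.57 and 5.50 without knockout library A, B or C, with an adjusted p of 0.0501, 0.107 and 0.0583, and 5.60 with an adjusted p of 0.0932 for B and C alone, where 2.14% of genes were called. Without V6.5 library B, which held 0 reads, it was 3.98 (adjusted p = 0.0135), and without C 6.46 (adjusted p = 0.0217). With the library-set term, where 4.2% of genes were, its adjusted p was 0.00361.

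In Dicer introns, where 0.353% of 11624 genes were called, no marker was, and 1176 genes passed at an unadjusted p under 0.05. The library-set term called 0.783% of genes and no marker, and B and C alone called no gene. Otx2 had 239.7, 271.6 and 287.9 normalised intronic reads in Dicer1-/-, against 77.2, 0 and 53.1 in TFC. The groups did not overlap, as in 17.3% of genes, and the difference was 4.04 on the log2(value + 1) scale (SE 1.35; limma, adjusted p = 0.317). Without TFC library B, which held 0 reads, it was 2.04 (adjusted p = 0.111). Zic2 introns had 109.5, 11.6 and 36.7 in Dicer1-/-, against 72.1, 144.6 and 117.4 in TFC (-1.53; adjusted p = 0.619), and 93.1, 75.1 and 52.1 in Dgcr8-/-, against 47.4, 17.8 and 54.9 in V6.5 (0.97; adjusted p = 0.529). These groups overlapped in both series. Fgf5 introns were listed at 0 in all 6 knockout libraries, against 6.10, 0 and 0 in TFC and 5.92, 77.4 and 19.96 in V6.5 (adjusted p = 0.2397 in the Dgcr8 series; below the filter in the Dicer series). In Dgcr8 introns the groups of Otx2 and Fgf5 did not overlap, as in 19.7% of genes. Fgf5 passed the filter there through V6.5 alone (mean 17.2 over 6 libraries), so its lack of overlap says little. Its V6.5 library A rests on 2 recovered reads.

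The exonic change was set against the intronic change of the same gene. No gene of 10952 in the Dicer series or of 10264 in the Dgcr8 series passed limma's test (389 and 588 at an unadjusted p under 0.05), so 0% is the background for the markers. For Otx2 the exonic minus the intronic log2 change was -3.11 (SE 1.77; adjusted p = 0.925) in the Dicer series and -2.37 (SE 1.21; adjusted p = 0.886) in the Dgcr8 series. For Zic2 it was 0.53 (SE 0.72; adjusted p = 0.935) and 0.56 (SE 0.36; adjusted p = 0.898), and for Fgf5 in the Dgcr8 series -0.01 (SE 0.95; adjusted p = 0.9997). Fgf5 introns were listed at 0 in every Dgcr8-/- library, so the size of their change is bounded by the added 1. The Fgf5 value therefore cannot compare its exonic with its intronic change. Without wild-type library B, the Otx2 values were -1.06 in the Dicer series and -1.11 in the Dgcr8 series, and without the wild-type library at the other end, -4.56 (A) and -3.66 (C). The Otx2 intervals, -7.45 to 1.23 and -5.26 to 0.51, include changes of either sign.

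**Figure D3:**
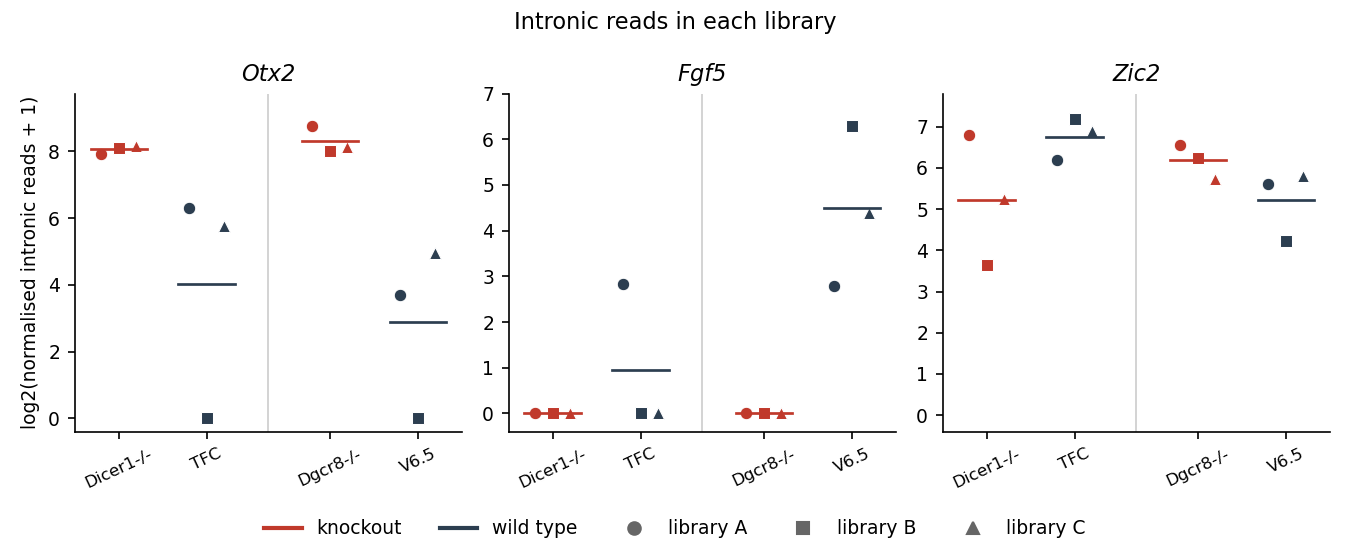
The vertical axis is log2(normalised intronic reads + 1), with 1 point per library and a line at the group mean. Otx2 introns lie at 255.7 to 428.6 reads in Dgcr8-/- and at 0 to 29.9 in V6.5, and Fgf5 introns are listed at 0 in every knockout library.

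Otx2 overlaps 2 annotated genes that were not analysed here: Otx2os1, a long noncoding gene on the opposite strand from 48668708 to 48870683, and Gm49154 on the same strand from 48672094 to 48673899. Pou3f1 overlaps the antisense gene Gm2164 (124528924 to 124657169, minus strand) and Foxd3 the annotated microRNA gene Gm23366 (99657742 to 99657830, plus strand). The libraries keep strand, per the labels' protocols, but whether counting used strand is not known from the sources used here. If it did not, reads of Otx2 and Otx2os1 in the shared stretch cannot be told apart, and the same holds for Pou3f1 and Gm2164. Gm49154 and Gm23366 lie on the same strand as Otx2 and Foxd3, so strand cannot separate their reads in the shared stretches.

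Library A differed from B and C by base composition, and Utf1, Foxd3 and Pou3f1 were higher in A in all 4 groups. Over genes with under 40% G and C, the median of library A minus the mean of B and C (log2(value + 1)) was -0.52 in Dicer1-/-, -0.70 in TFC, -1.65 in Dgcr8-/- and -0.77 in V6.5. Over genes with 60% or more it was 2.63 in Dicer1-/-, 3.36 in TFC, 3.07 in Dgcr8-/- and 2.92 in V6.5. Utf1 in library A was 21.8 times the mean of B and C in Dicer1-/-, 18.5 times in TFC, 40.6 times in Dgcr8-/- and 65.4 times in V6.5. Foxd3 was 12.9, 6.59, 12.2 and 15.8 times the mean of B and C in Dicer1-/-, TFC, Dgcr8-/- and V6.5, and Pou3f1 3.22, 2.46, 7.08 and 5.35 times. On the log2 scale Pou3f1 lay below the median of genes of 60% or more in all 4 groups, at 1.69, 1.38, 2.82 and 2.54, and Foxd3 did in TFC, at 2.70. Otx2, below the median composition, was at 1.05, 0.497, 1.04 and 2.62 times in the same groups. Zic2 was at 1.91, 0.989, 1.53 and 1.68 times, below the median of genes of 55 to 60% in each group. Fgf5 was at 2.03, 2, 0.823 and 0.0866 times, from few reads. The part of base composition in the differences between knockout and wild type was not tested. Within library A alone and within B and C alone, the difference of Otx2 was 1.64 and 0.58 in the Dicer series and 2.20 and 3.53 in the Dgcr8 series. That of Zic2 was -0.38 and -1.32, and 1.31 and 1.69, and that of Fgf5 -2.11 and -3.19, and -2.16 and -5.62. In exons each of these 3 markers had the same direction in both sets, while Zic2 introns in the Dicer series were at 0.60 within A and -2.59 within B and C. Pou3f1 exons did too, at -0.23 and -0.54, and -0.10 and -0.39. Utf1 (0.12 and 0.15 in the Dicer series, -0.12 and 0.58 in the Dgcr8 series) and Foxd3 (0.47 and -0.48, and 1.12 and 2.68) each changed sign between the sets in 1 series.

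**Figure D4:**
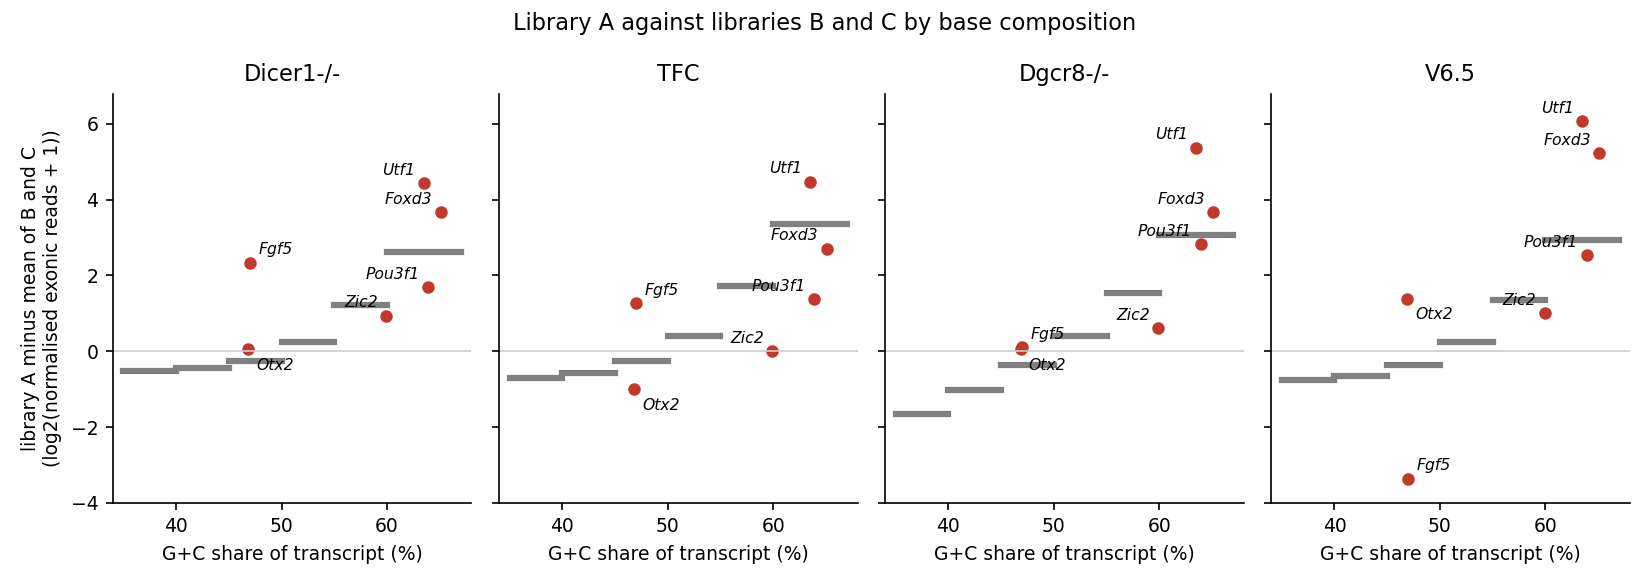
Points are the 6 markers and grey bars the medians over all genes of each composition class, with the G and C share of the transcript on the horizontal axis and library A minus the mean of B and C on the vertical axis, both in log2(normalised exonic reads + 1). The medians climb with G and C in all 4 groups (2.63 to 3.36 in the highest class), and Utf1 lies above them in every group.

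Levels can be ordered between genes per kilobase of exon within a group. In Dicer1-/- the order of the mean normalised exonic reads per kilobase was Utf1 (1863), Otx2 (472), Zic2 (308), Foxd3 (97.7), Pou3f1 (77.3) and Fgf5 (6.41). In TFC it was Utf1 (1738), Zic2 (591), Otx2 (261), Pou3f1 (101), Foxd3 (79.3) and Fgf5 (28.8). Otx2 thus stood above Zic2 in Dicer1-/- and below it in TFC, and in each case the 2 ranges over libraries did not overlap (455 to 486 for Otx2 and 229 to 452 for Zic2 in Dicer1-/-, 156 to 340.1 for Otx2 and 519.7 to 667 for Zic2 in TFC). In Dgcr8-/- the order was Utf1 (2079.5), Otx2 (715), Zic2 (366), Foxd3 (175), Pou3f1 (128) and Fgf5 (3.81). In V6.5 it was Utf1 (2224), Pou3f1 (147), Zic2 (140.2), Fgf5 (130.4), Otx2 (93.6) and Foxd3 (78.0), and there all neighbours overlapped. Utf1 was first through library A, at 5119.5 reads per kilobase in Dicer1-/-, 4707 in TFC, 5946 in Dgcr8-/- and 6475 in V6.5. By the mean of B and C it ranked 3 of 6 in all 4 groups, at 235 in Dicer1-/-, 254 in TFC, 146 in Dgcr8-/- and 99.1 in V6.5. Otx2 then came first in Dicer1-/- (465) and Dgcr8-/- (707), Zic2 in TFC (593) and Fgf5 in V6.5 (187). Otx2 and Zic2 did not overlap in Dgcr8-/-, and Pou3f1 and Fgf5 overlapped in neither knockout, while Foxd3 and Pou3f1 overlapped in every group.

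Other genes of the formative and primed state did not follow Otx2 as a group. Of 14 listed genes, 13 were in the tables and 12 were tested in each exon comparison, and none was called in either series. In Dicer exons 6 were higher and 6 lower (median log2 change -0.01, also -0.01 over all genes), and in Dgcr8 exons 5 were higher and 7 lower (median -0.18, against -0.08 over all genes). The 6 markers had medians of -0.30 and 0.96. Under the library-set term 2 were called higher and 1 lower in Dicer1-/-. That term called 12.2% of all genes in Dicer exons and 17% in Dgcr8 exons. The lowest p-values without the term were those of Etv4, an ETS factor downstream of fibroblast growth factor signals (669 in Dicer1-/-, 1289 in TFC; adjusted p = 0.165, 0.0190 with the term), and Cdh2, N-cadherin (1048 in Dicer1-/-, 343.9 in TFC; adjusted p = 0.158, 0.0211 with the term). In the Dgcr8 series 1 was called higher and 1 lower with the term. The lowest p-values without the term were those of Dnmt3a, a de novo DNA methyltransferase (4276 in Dgcr8-/-, 2253 in V6.5; limma, adjusted p = 0.227, 0.00617 with the term), and Lef1, a Wnt pathway factor (78.5 in Dgcr8-/-, 277.8 in V6.5; adjusted p = 0.231, 0.0627 with the term). The gene called lower with the term was Etv4 here too (352 in Dgcr8-/-, 830.8 in V6.5; limma, adjusted p = 0.252, 0.0276 with the term). Tdgf1, the Nodal co-receptor Cripto, had the lowest p in Dgcr8 introns (1197 in Dgcr8-/-, 550.0 in V6.5; adjusted p = 0.0646, 0.00927 with the term). Sox3 was not analysed here.

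Of the close relatives of the markers, only Pou3f2 in Dicer exons was called. Tested were 2 Zic genes and 3 POU, Otx and Fox genes in Dicer exons, and 3 and 1 in Dgcr8 exons. Of all genes, 1.26% were called in Dicer exons and 1.36% in Dgcr8 exons. Zic5, the divergent neighbour of Zic2, had 304.3 normalised exonic reads in Dicer1-/- and 334.3 in TFC (limma, adjusted p = 0.976), and 234.9 in Dgcr8-/- and 165.4 in V6.5 (adjusted p = 0.703). Pou3f2, a neural POU factor, was called in Dicer exons with 207.7 in Dicer1-/- and was listed at 0 in TFC (limma, adjusted p = 0.0485). It passed the filter there through Dicer1-/- alone, and the size of its change is bounded by the added 1. In the Dgcr8 series Pou3f2 had 33.0 in Dgcr8-/- and 3.39 in V6.5 (adjusted p = 0.230).

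Markers of other states and cell types were counted beside the 6 genes. Their counts are to be read against the share of all genes called in exons. That share was 1.26% in the Dicer series and 1.36% in the Dgcr8 series over all libraries, and 12.2% and 17% with the library-set term. Among 14 naive genes, Nr5a2, an orphan nuclear receptor, fell by 1.53 on the log2 scale in Dicer1-/- (1159 reads, against 3410 in TFC; limma, adjusted p = 0.0397), the only 1 called there. Of 13 tested in the Dgcr8 series, Prdm14 (695 in Dgcr8-/-, 122.3 in V6.5; adjusted p = 0.0489) and Pecam1 (2759 in Dgcr8-/-, 679 in V6.5; adjusted p = 0.0299) rose and none fell. The library-set term changed the calls: 4 naive genes were called higher and 3 lower in Dicer1-/-. In Dgcr8-/- 6 were called higher and 1, Dppa3, lower (86.0 in Dgcr8-/-, 820.3 in V6.5; adjusted p = 0.00287 with the term). Dppa3 was also lower in Dicer1-/- (229 reads, 976 in TFC; limma, adjusted p = 0.0589, 0.00240 with the term). By direction alone, 8 of 14 naive genes were higher in Dicer exons and 10 of 13 in Dgcr8 exons. Of the neural list only Pou3f2 in Dicer1-/- was called over all libraries. Sox1 had 804 in Dgcr8-/- and 45.7 in V6.5 (adjusted p = 0.0590, 0.00144 with the term), and Pax6 333.9 in Dgcr8-/- and 78.4 in V6.5 (adjusted p = 0.0904, 0.00649 with the term). Map2 was the third neural gene called higher in Dgcr8-/- with the term (adjusted p = 0.0255). Of 7 neural genes tested in Dgcr8 exons, 4 were higher and 3 lower. The lower ones were Nes (1866 in Dgcr8-/-, 3733 in V6.5), Tubb3 (703 and 915) and Dcx (6.68 and 27.0), and none passed with or without the term. In Dicer exons 4 of 6 neural genes tested were higher and 2, Nes and Tubb3, lower without passing. Among the higher ones were Sox1 (611 in Dicer1-/-, 239.5 in TFC; limma, adjusted p = 0.325, 0.121 with the term) and Pax6 (399 in Dicer1-/-, 150.7 in TFC; adjusted p = 0.314, 0.0930 with the term). No neural crest gene was called in either exon comparison, and no core pluripotency gene of the 3 tested in each. Under the library-set term Pou5f1 (15642 in Dgcr8-/-, 9585 in V6.5; adjusted p = 0.0149) and Sox2 (16618 in Dgcr8-/-, 7854 in V6.5; adjusted p = 0.0295) were higher in Dgcr8-/-. In Dgcr8 introns Nanog was called (376.5 in Dgcr8-/-, 147.7 in V6.5; adjusted p = 0.0493).

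Beside Fgf5, markers of several other cell types stood lower in Dgcr8-/- than in V6.5. Over all libraries 1.36% of all genes in Dgcr8 exons were called, beside which the counts of these lists are to be read. Of the primitive streak list, 6 of 8 genes were tested and T and Wnt3 fell in Dgcr8-/- (limma, adjusted p = 0.0326 and 0.0441). T, Brachyury, was listed at 0 in all Dgcr8-/- libraries and averaged 1443 in V6.5, so it passed the filter through V6.5 alone. Wnt3 averaged 12.4 in Dgcr8-/- and 652 in V6.5. Only Foxa2 of the streak genes tested was higher in Dgcr8-/- (17.2, against 8.71 in V6.5), and it did not pass. The summed list ranged over libraries from 119.6 to 218.6 normalised exonic reads in Dgcr8-/- and from 360.6 to 4649 in V6.5, with Mesp1 at 0 in all. Of 7 trophoblast genes listed, 6 were tested, and the keratins Krt8 and Krt18 and the factor Cdx2 fell. The summed list was 1329 to 2548 in Dgcr8-/- and 9906 to 13720 in V6.5. Krt8 and Krt18, which are not limited to trophoblast, averaged 5087 and 5209 in V6.5 and made up most of its sum. Tfap2c did not pass and its log2 change was 0.19. Of 7 fibroblast genes, Col1a1, Col1a2, Acta2 and Tagln fell, with a sum of 425 to 1342 in Dgcr8-/- and 5683 to 12912 in V6.5. Of 7 primitive endoderm genes tested, Dab2 fell (sum 908 to 1409 in Dgcr8-/-, 1286 to 2275 in V6.5), while 3 had higher values in Dgcr8-/- and did not pass: Gata4 (163 in Dgcr8-/-, 130.3 in V6.5), Cubn (51.2 in Dgcr8-/-, 49.9 in V6.5) and Lama1 (892 in Dgcr8-/-, 689 in V6.5). Under the library-set term the genes called lower were 3 of the streak list, 3 trophoblast, 6 fibroblast and 2 endoderm genes. With that term 17% of all genes in Dgcr8 exons were called in either direction. In the Dicer series no gene of these 4 lists was called in exons over all libraries. Under that term Krt8 (651 in Dicer1-/-, 178.2 in TFC; adjusted p = 0.0105) and Tagln (429.7 in Dicer1-/-, 103.8 in TFC; adjusted p = 0.0386) were higher in Dicer1-/-. The term called 12.2% of all genes in Dicer exons. Tagln was the only 1 of 7 fibroblast genes with a higher value in Dicer1-/-. The 6 lower ones were not called, and the median log2 change of this list was -2.65. All 4 trophoblast genes tested were higher in Dicer1-/-, and of these only Krt8 passed with the term. The streak sum was 138.6 to 324.0 in Dicer1-/- and 326.3 to 486.1 in TFC. The part of such cells in the Fgf5 and Otx2 values was not tested.

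The genes whose exonic pattern over the 12 libraries was most like each marker, after centring each series, were named by Pearson's r among 12267 genes, as a description of libraries that share genotype, depth and library set. Otx2 was closest to Epas1 (r = 0.993, Spearman 0.986), a hypoxia-inducible factor, and Gfpt2 (r = 0.987), a hexosamine pathway enzyme. Zic2 was closest to C87436 (r = 0.925) and Map1a (r = 0.920), and Fgf5 to Prrg3 (r = 0.928) and Aim1 (r = 0.925). Pou3f1 was closest to Tmem198b (r = 0.963) and Bola1 (r = 0.959), Foxd3 to Arvcf (r = 0.964) and Krtcap2 (r = 0.941), and Utf1 to Sf3a2 (r = 0.995) and H2afx (r = 0.995). Among the markers themselves, Pou3f1, Foxd3 and Utf1 correlated at r of 0.80 to 0.91 over 12 libraries, with library A highest in each group, and Otx2 and Fgf5 at r = -0.83.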

How the data were processed

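The 4 tables deposited by the authors hold a signal, reads divided by a size factor, with 1 column of group means per genotype, per the file headers. The submitters' processing notes name TopHat2 (2.0.12), DESeq and the build mm10. The rule that assigned reads to exons or introns is not given in the sources.

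The planned tests need values per library. Each mean is a whole-number combination of 3 steps, 1 per library, which were solved for (Python 3.11.15). Between 99.0 and 100% of genes per column had 1 solution, the others (185 at most) were left out, and on simulated columns all unique solutions were right (100%). Of recovered read numbers 66.5 to 71.6% were even, so precision is lower than depth implies and no counting interval is given. No pair of libraries agreed within sampling noise (chi-square per gene at least 12.4). Intronic libraries took letters from exonic ones by their deviations (r of 0.304 to 0.419 for A, 0.0939 to 0.280 for B and C), so exonic and intronic values of B and C are loosely matched.

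Genes with a mean of at least 10 were tested with limma 3.58.1 (R 4.3.3, variance trend) on log2(value + 1), within a table, knockout minus wild type; Benjamini-Hochberg adjusted p under 0.05 over all genes counts as called. The added 1 understates changes of low genes, and a library at 0 can widen them. The steps were tested on simulated data. An exact permutation test of 3 against 3 libraries cannot go below p = 0.1. All 6 markers are named. Of the other lists, the rule was genes called, plus the 2 with the lowest p where at most 1 was called. Not every exonic or intronic gene under this rule is printed. For likeness, the 2 highest correlations are given. The markers and lists were chosen with earlier results of these data known. Alternatives were pseudocounts, filter, trend, quantile normalisation, limma-voom on recovered reads, a library-set term and each library left out. B and C alone was added after seeing the data, and the library letters were themselves picked from the values.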

Additional observations from a re-analysis of the deposited data

Results flagged for a closer look

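Zic2 was singled out because its values differed in opposite directions in the 2 series, although neither difference passed over all libraries (limma, adjusted p = 0.188 and 0.195). All 3 Dicer1-/- libraries lay below all TFC libraries (log2 fold change -1.005), and all 3 Dgcr8-/- libraries lay above all V6.5 libraries (1.57). Groups did not overlap in 21.4% of genes tested in Dicer exons and 22.5% in Dgcr8 exons. How many genes separated in opposite directions in the 2 series was not counted. Without V6.5 library B the Dgcr8 change was 0.956, and Zic2 introns overlapped between groups in both series. The difference between the effects was -2.57 (SE 0.65; limma, adjusted p = 0.205), with a range of adjusted p from 0.0161 to 0.526 over 20 alternatives, of which 2 passed: the library-set term and libraries B and C alone. The difference stayed negative in all 20, from -3.01 to -1.96, but these reuse the same libraries by which Zic2 was picked.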

How the results depend on the processing

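Of 413 results for single markers under alternatives, 358 kept direction and side of the threshold, 12 passed newly, 10 no longer passed and 33 changed sign. With the library-set term the markers called were 2 in Dicer exons (0 over all libraries), 3 in Dgcr8 exons (1) and 2 in the contrast of both effects (0). Of all genes, that term called 12.2%, 17% and 2.80%. With libraries B and C alone the markers called were 1, 2 and 2, where 5.43%, 18.2% and 5.08% of genes were. In Dgcr8 introns B and C alone called 0 markers (1 over all libraries) and 2.14% of genes. The model without a variance trend and limma-voom also called 0 markers there. Leaving out 1 library gave 0 to 2 in Dgcr8 exons, 0 to 1 in Dgcr8 introns and 0 to 1 in the contrast. All genes called moved more: 166 in Dicer exons (0 to 1604 over alternatives), 172 in Dgcr8 exons (0 to 2297), 41 in Dicer introns (0 to 91), 163 in Dgcr8 introns (26 to 451) and 21 in the contrast (11 to 623). Log2 changes near 0 turned sign: Utf1 in Dicer exons (-0.0241 with quantile normalisation, -0.0389 with limma-voom), Pou3f1 in Dgcr8 exons (0.285 with limma-voom) and the exonic minus intronic change of Fgf5 in the Dgcr8 series (0.842 at a pseudocount of 0.5, 0.00207 without the filter, 0.00335 with libraries not matched). With 1 library left out, the ranges that crossed 0 were -1.34 to 1.63 for Utf1, -1.39 to 0.736 for Foxd3 and -0.997 to 0.0237 for Pou3f1 in Dicer exons, -1.24 to 0.551 for Pou3f1 and -1.44 to 2.37 for Utf1 in Dgcr8 exons, -0.986 to 0.8 for Pou3f1 and -2.23 to 1.58 for Utf1 in the contrast, -0.114 to 0.993 for Zic2 in the Dicer exonic minus intronic change and -0.653 to 0.934 for Fgf5 in that of the Dgcr8 series. The cause was not tested. No paired analysis was possible because no replicate number is attached to a recovered library. Fgf5 held 0 to 38 recovered exonic reads in knockout libraries, which limits its precision.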
